A study of Mus musculus with 219 samples.

Results

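The transcriptomes of 55 mouse 2-cell embryos were compared with those of 31 intact blastocysts, 86 embryos of a series that comprised 219 labelled samples and 194 tabulated libraries. All embryos came from B6C3F1 oocytes injected with the head of a CD1 sperm (intracytoplasmic sperm injection, ICSI) and were cultured in KSOM medium with amino acids. Sperm was placed contralateral to the meiotic spindle, ipsilateral to it (isolateral in the labels) or at the equator, which gave 21, 21 and 13 2-cell embryos and 11, 8 and 12 blastocysts. A 2-cell embryo was the sum of its sister blastomeres, 110 libraries in all, each with 9500 or more genes counted and with both sisters kept, taken soon after the first cleavage. An intact blastocyst had not been bisected at the 2-cell stage and was lysed whole. Every group was therefore an ICSI group of a single hybrid cross, and embryos conceived by mating were not analysed here.

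The mouse embryo starts development on transcripts stored in the growing oocyte, which is transcriptionally silent at fertilisation. The major wave of its own transcription starts at the 2-cell stage, while the stored transcripts are deadenylated and degraded. By the blastocyst stage an outer epithelium, the trophectoderm, encloses a fluid-filled cavity and an inner cell mass, which holds the epiblast (source of the fetus) and the primitive endoderm (source of the yolk sac endoderm).

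Levels are given in CPM, counts scaled so that those of every library sum to the same total, a relative scale that does not show the amount of RNA in an embryo. Since whole embryos were measured, fewer cells of a type and less RNA per cell cannot be told apart. The 2-cell embryos held 1255481 to 3976094 counts (median 2683481) and the blastocysts 234099 to 1254428 (median 705837). Twin blastocysts, which grew from the separated sisters of an embryo, held 1676976 to 3095134 (median 2200256) per pair. By the labels, 42 of the 2-cell embryos came from plate 1 and 13 from plate 2. All 31 blastocysts were assigned to plate 2, though their library names, unlike those of the blastomeres, give no plate. Over all embryos stage and plate thus cannot be fully told apart. Between the plates, 83 of the 12645 genes tested differed within the 2-cell embryos (0.656%, with 1279 at an unadjusted p under 0.05), and 13 of them by 4-fold or more. Markers of cells outside the embryo were low at both stages. The summed level ran from 22 to 113 (median 59.5) CPM in 2-cell embryos and 0 to 120.2 (median 15.7) CPM in blastocysts for 14 cumulus and granulosa genes. It ran from 0 to 42.7 (median 10.7) CPM and 0 to 10.4 (median 0) CPM for 10 sperm genes, and from 0 to 32.4 (median 6.88) CPM and 0 to 15.4 (median 0) CPM for 12 fibroblast and blood genes.

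Most of the transcriptome differed between the stages. A gene was tested where enough embryos of either stage had counts of it, so that a gene absent at one stage had to be well counted at the other. With the ICSI site as a term of the model, 5161 genes (40.8% of those tested) were higher in blastocysts and 5664 (44.8%) were lower at an adjusted p under 0.05, and 1820 did not pass. At 4-fold or more, 2598 genes (20.5%) were higher and 3368 (26.6%) were lower. Every blastocyst lay above every 2-cell embryo for 683 genes (5.40%), and every 2-cell embryo lay above every blastocyst for 1246 (9.85%). The median log2 fold change over all genes, blastocyst over 2-cell embryo, was -0.11 on the CPM scale, and with TMM normalisation it was -0.33, a shift of -0.22. The shares of 40.8% and 44.8% and the median of -0.11 are the background against which the counts of each gene list can be read. For counts of genes without overlap the background is 5.40% (blastocysts above) and 9.85% (2-cell embryos above). Within plate 2, where 13 2-cell embryos met the same 31 blastocysts, 4528 of the 12645 genes (35.8%) were higher and 5090 (40.3%) were lower. Of the genes past 4-fold over all embryos, 2581 of 2598 and 3356 of 3368 were called the same way there. The embryos of plate 2 also entered the fit over all embryos, so the 2 sets of calls are not independent.

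**Figure D1:**
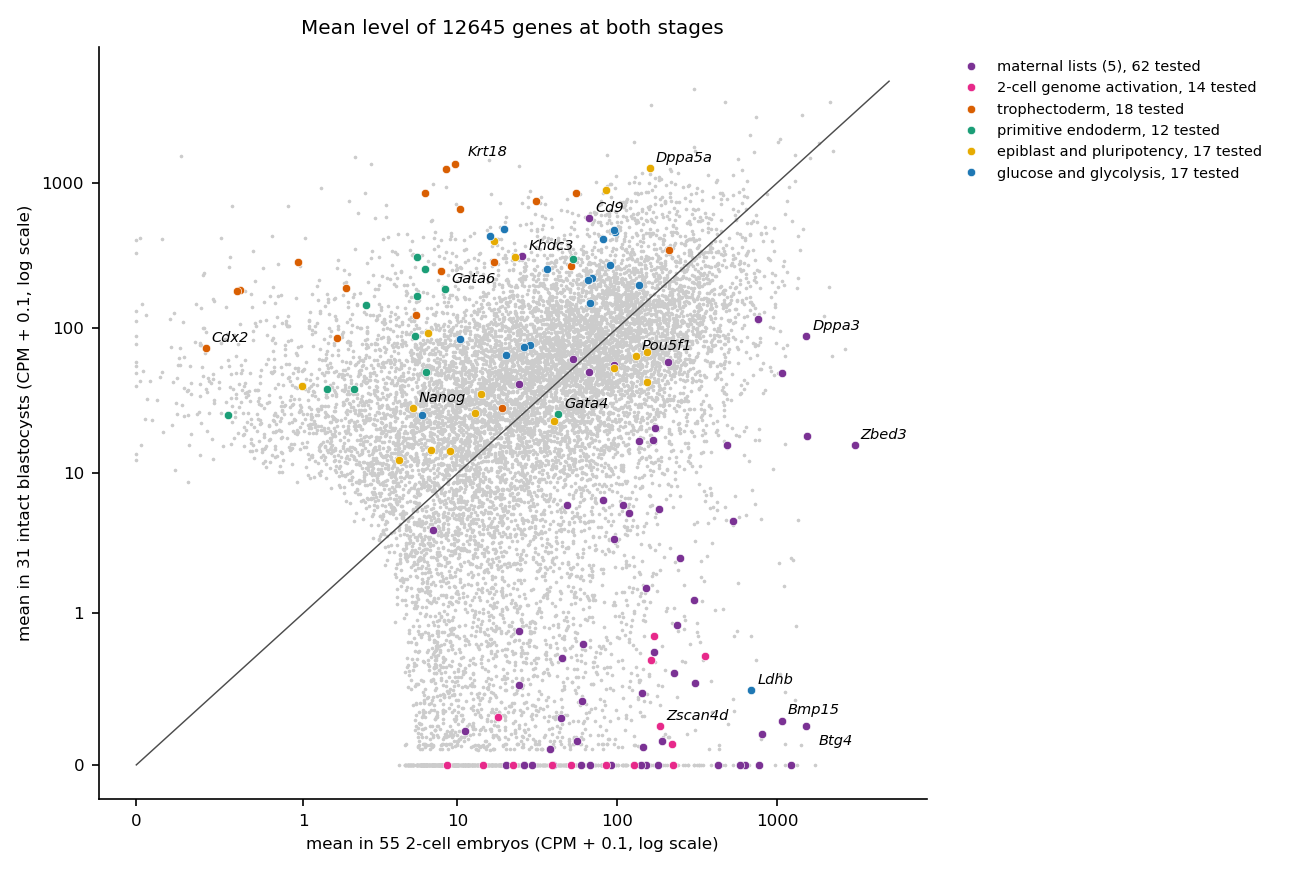
Mean level of each tested gene in 55 2-cell embryos (horizontal axis) and 31 intact blastocysts (vertical axis), both in CPM + 0.1 on a log scale, with equality drawn as a line. Coloured points mark the tested members of gene lists named in the key: most members of the maternal lists lie below the line, with Cd9, Khdc3, Tut4 and Tut7 above it, 678 genes of all those tested lie at a mean of 0 in blastocysts, and the trophectoderm genes lie above the line.

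Of the genes tested, 678 were at 0 in all 31 blastocysts, and 79 of these had a 2-cell mean of 100 CPM or more. The 15 largest falls among genes with an official symbol included known products of the oocyte. The uncharacterised E330034G19Rik, which that rule leaves out, had a fitted log2 fold change of -14.71 and went from 1717 ± 219 CPM to 0 (at least 12662-fold lower). A fold change against a group at 0 is given as a lower bound, from 3 counts over all blastocysts, which correspond to 0.136 CPM. Omt2b, an oocyte maturation gene of unclear function, ran from 971 to 2104 (median 1276) CPM in 2-cell embryos and was at 0 in every blastocyst, at least 9777-fold lower. Obox5, an oocyte homeobox factor, ran from 891 to 1786 (median 1186) CPM and was at 0 in all blastocysts, at least 8989-fold lower. Both genes were thus present in every embryo at one stage and undetected in every embryo at the other. The same held for Trim61, a tripartite motif protein (at least 8296-fold lower), Oog3, an oogenesin (7203), Oosp1 (5687) and Oosp3 (4347), which encode oocyte-secreted proteins, and H1foo, the linker histone of the oocyte (4671). Tcl1b2, Tcl1b4 and Tcl1b3, relatives of the AKT co-activator Tcl1, were at least 4926-fold, 4662-fold and 4211-fold lower.

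In the blastocysts 1 or 2 counts remained for the other 5 of the 15 largest falls. Btg4, the adaptor that brings the CCR4-NOT deadenylase to maternal mRNA, ran from 1153 to 2376 (median 1485) CPM in 2-cell embryos and from 0 to 2.61 (median 0) CPM in blastocysts, where 1 count was seen against 222055 in 2-cell embryos. The mean of the 2-cell embryos was 33645 times the level pooled over all blastocysts, with a 95% counting interval of 6039 to 1328900. The ratio of the mean CPM values was 18088. Omt2a and Tcl1b1 also had 1 count in all blastocysts, as did Wee2, the oocyte kinase that holds CDK1 inactive, which ran from 536 to 1034 (median 825) CPM in 2-cell embryos. Bmp15, a growth factor that the oocyte signals with to its follicle cells, ran from 732 to 1424 (median 1065) CPM in 2-cell embryos and from 0 to 3.16 (median 0) CPM in blastocysts, with 2 counts there. No blastocyst overlapped any 2-cell embryo for these 15 genes, which the rule of selection required.

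Several of these genes are neighbours and copies of each other, so that reads shared between copies may be missing from the counts. The 4 Tcl1b genes lie between chr12:105146014-105155225 and chr12:105201957-105206993 (GRCm38), Omt2a and Omt2b at chr9:78311972-78314796 and chr9:78327589-78329620, and Oosp1 and Oosp3 at chr19:11667460-11691150 and chr19:11697055-11711874. Reads were assigned without strand, and the values of single members of these families and of the Obox, Zscan4, Usp17l and Tcstv families are uncertain to that extent.

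The start regions of the transcripts that disappeared were poor in CpG. In RefSeq promoters of 300 bases (250 before and 50 after the start, GRCm38.p6), the 54 of the 79 genes at 0 in blastocysts that had a promoter in the table held a median of 2 CpG dinucleotides. The median was 21 over the promoters of 9734 tested genes and 7 over all 27025 promoters in the table. The wider set that fell by 4-fold or more without overlap of the stages had a median of 17 (821 promoters), and the set that rose in this way 20 (489 promoters). The letters TAATTG on either strand, which the oocyte homeobox factor NOBOX is known to bind, occurred in 22.2% of the 54 promoters, 5.03% of those of tested genes and 8.15% of all. They also occurred in 3 of the 16 trophectoderm promoters in the table (18.8%), and in 0 of the 11 of the 2-cell genome activation list. GGGCGG on either strand, the letters of SP and KLF factors, occurred in 7.41%, 63% and 35.9% of them. These shares describe letters in a window and not bound sites. Tested genes and all genes in the table also differ in CpG content, and the comparison was not tested. The median GC content was 47% in the 54 promoters, 60.7% for tested genes and 52.7% for all. Some of the 54 belong to genes that are copies of each other.

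Promoters of 5 genes that stand for the main patterns are shown 5′ to 3′ on the gene's strand, with every CG dinucleotide in capitals. Btg4 (chr9:51115751-51116050, plus strand) and Obox5 (chr7:15750120-15750419, plus strand) were lost, and held 1 CpG each. Ldhb (chr6:142507908-142508207, minus strand) was also lost but held 17, its paralogue Ldha (chr7:46845554-46845853, plus strand) held 30, and Krt18 (chr15:102027966-102028265, plus strand), which rose, held 17.
Btg4: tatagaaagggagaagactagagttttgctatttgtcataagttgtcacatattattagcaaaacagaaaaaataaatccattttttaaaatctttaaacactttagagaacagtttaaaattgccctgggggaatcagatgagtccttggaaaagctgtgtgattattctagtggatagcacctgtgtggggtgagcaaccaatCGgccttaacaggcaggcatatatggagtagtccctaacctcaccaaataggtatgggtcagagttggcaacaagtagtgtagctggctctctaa
Obox5: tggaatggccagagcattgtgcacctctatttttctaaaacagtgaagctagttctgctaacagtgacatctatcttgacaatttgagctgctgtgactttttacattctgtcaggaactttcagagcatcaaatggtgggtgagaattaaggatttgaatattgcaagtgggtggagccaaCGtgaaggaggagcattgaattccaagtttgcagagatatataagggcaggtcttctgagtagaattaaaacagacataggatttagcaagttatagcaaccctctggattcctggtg
Ldhb: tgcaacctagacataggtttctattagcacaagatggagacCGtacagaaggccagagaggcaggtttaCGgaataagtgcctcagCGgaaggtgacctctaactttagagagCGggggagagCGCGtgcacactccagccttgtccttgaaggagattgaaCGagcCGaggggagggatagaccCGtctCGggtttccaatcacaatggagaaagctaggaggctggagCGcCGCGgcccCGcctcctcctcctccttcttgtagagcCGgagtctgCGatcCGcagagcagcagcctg
Ldha: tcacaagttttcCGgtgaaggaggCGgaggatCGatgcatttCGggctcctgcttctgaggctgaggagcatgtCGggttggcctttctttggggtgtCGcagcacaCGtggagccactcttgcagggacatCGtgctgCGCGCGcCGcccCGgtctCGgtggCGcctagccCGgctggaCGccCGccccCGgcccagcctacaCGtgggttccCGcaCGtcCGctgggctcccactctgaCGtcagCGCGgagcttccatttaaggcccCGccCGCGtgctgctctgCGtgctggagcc
Krt18: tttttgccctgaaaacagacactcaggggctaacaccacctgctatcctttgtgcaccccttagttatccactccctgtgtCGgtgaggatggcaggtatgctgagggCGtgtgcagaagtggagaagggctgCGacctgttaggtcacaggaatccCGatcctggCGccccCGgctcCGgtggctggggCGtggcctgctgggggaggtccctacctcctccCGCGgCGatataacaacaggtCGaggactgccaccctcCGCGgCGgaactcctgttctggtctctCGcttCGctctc

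Genes of the oocyte surface and its growth factors fell nearly as a group. Of 12 listed genes, all tested, 11 were lower and 1 was higher in blastocysts, with a median log2 fold change of -8.72 against -0.11 over all genes. For the 11, every 2-cell embryo lay above every blastocyst, as for 9.85% of all genes tested. Gdf9, which acts with Bmp15 on follicle cells, ran from 204 to 459 (median 306) CPM in 2-cell embryos and from 0 to 13.2 (median 0) CPM in blastocysts (log2 fold change -7.72 ± 0.23, adjusted p = 1.5e-51). Kit, the receptor through which the oocyte receives KIT ligand, fell from 151 ± 46.2 to 1.55 ± 4.01 CPM (mean ± SD). The zona pellucida genes Zp1, Zp2 and Zp3, which encode the egg coat, averaged 44.9 ± 16.8, 109.3 ± 32.7 and 56.5 ± 23.4 CPM at the 2-cell stage and fell by 8.22, 4.35 and 9.04 on the log2 scale. Izumo1r, the sperm receptor Juno, was at 0 in all blastocysts (at least 443-fold lower). The exception was Cd9, a tetraspanin that the egg needs for sperm fusion and that many other cells make: it ran from 4.78 to 136 (median 67.4) CPM in 2-cell embryos and from 337 to 1320.4 (median 549) CPM in blastocysts, without overlap (log2 fold change 3.18 ± 0.15, adjusted p = 4.7e-36).

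The subcortical maternal complex is a protein assembly under the oocyte membrane that early cleavage depends on. Of its 9 genes, 8 were lower and 1 was higher (median log2 fold change -6.76). Zbed3, which had the highest mean CPM of all genes in 2-cell embryos (not corrected for length), ran from 2220.0 to 4044 (median 3030.2) CPM, against 0 to 51.7 (median 14.9) CPM in blastocysts (log2 fold change -7.57 ± 0.18, adjusted p = 4.8e-59). Nlrp5 (MATER) fell from 171 ± 41.2 to 0.498 ± 2.31 CPM, and Nlrp4f from 534 ± 166 to 4.62 ± 6.52. Ooep and Padi6 fell less, by 3.21 and 4.55 on the log2 scale, with blastocysts of up to 76.9 and 23.1 CPM. Ooep reached into the range of the 2-cell embryos. Khdc3 (FILIA) moved the other way, from 0 to 69 (median 23.9) CPM in 2-cell embryos and from 32.1 to 675 (median 280.3) CPM in blastocysts (log2 fold change 3.63 ± 0.23, adjusted p = 1.4e-26).

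Genes that store, translate or destroy maternal mRNA were lower in 12 of 16 cases and higher in 1, with a median log2 fold change of -3.77. Among the deadenylase genes, Cnot6l ran from 817 to 1330.0 (median 1076) CPM at the 2-cell stage and from 4.01 to 125.1 (median 47) CPM in blastocysts (log2 fold change -4.46 ± 0.14, adjusted p = 2.4e-49). Cnot7 ranged from 485 to 1199 (median 774) CPM at the 2-cell stage and from 6.30 to 236 (median 104.7) CPM in blastocysts (log2 fold change -2.68 ± 0.12, adjusted p = 5.1e-37). Both genes were counted in every blastocyst. Dazl, an RNA-binding protein of germ cells, fell from 487 ± 157 to 15.7 ± 19.96 CPM, Eif4e1b, the oocyte form of the cap-binding protein, from 145 ± 48.1 to 0.0331 ± 0.184, and Ybx2 (MSY2), a main packaging protein of stored mRNA, from 173 ± 43.1 to 20.6 ± 16.4. The uridyltransferases behaved differently. Tut4 rose over all embryos (log2 fold change 0.73 ± 0.23, adjusted p = 0.00247) but did not pass within plate 2 (0.68 ± 0.42, adjusted p = 0.134). Tut7 did not pass the test (log2 fold change 0.20 ± 0.17, adjusted p = 0.257).

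Transcription and chromatin factors of the oocyte were lower in all 14 tested cases (median log2 fold change -9.87), and Figla, which was listed too, was too low to test at either stage. Dppa3 (STELLA), which protects maternal methylation marks, ran from 1069.5 to 2408 (median 1449.9) CPM at the 2-cell stage and from 0 to 403 (median 45.7) CPM in blastocysts (log2 fold change -4.17 ± 0.25, adjusted p = 1.2e-27). Npm2, a nuclear chaperone that remodels sperm chromatin, ran from 220.2 to 469 (median 299) CPM at the 2-cell stage and from 0 to 3.62 (median 0) CPM in blastocysts. Nobox, Sebox, Obox1, Obox2 and Obox7 were at 0 in every blastocyst, at least 501-fold, 1048-fold, 3139.8-fold, 1118-fold and 1342-fold lower. Taf4b, a subunit of the TFIID complex that is enriched in germ cells, fell least (log2 fold change -1.82 ± 0.15, adjusted p = 8.5e-21) and was still at 59 ± 33.6 CPM in blastocysts.

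All 11 tested genes of meiotic arrest and egg activation were lower too (median log2 fold change -8.40). Tcl1 ran from 1160.5 to 2002 (median 1540.5) CPM at the 2-cell stage and from 0 to 52 (median 14) CPM in blastocysts (log2 fold change -6.42 ± 0.24, adjusted p = 9.6e-43). Fbxo43 (EMI2), which holds the egg in metaphase, fell from 192 ± 46.5 to 0.0457 ± 0.254 CPM, Aurkc, the Aurora kinase of germ cells, from 249 ± 59.2 to 2.54 ± 4.53, and Itpr1, the calcium channel that answers the sperm signal, from 184 ± 42.8 to 5.63 ± 6.53. Mos, the kinase of metaphase arrest, was at 11.2 ± 8.54 CPM in 2-cell embryos.

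**Figure D2:**
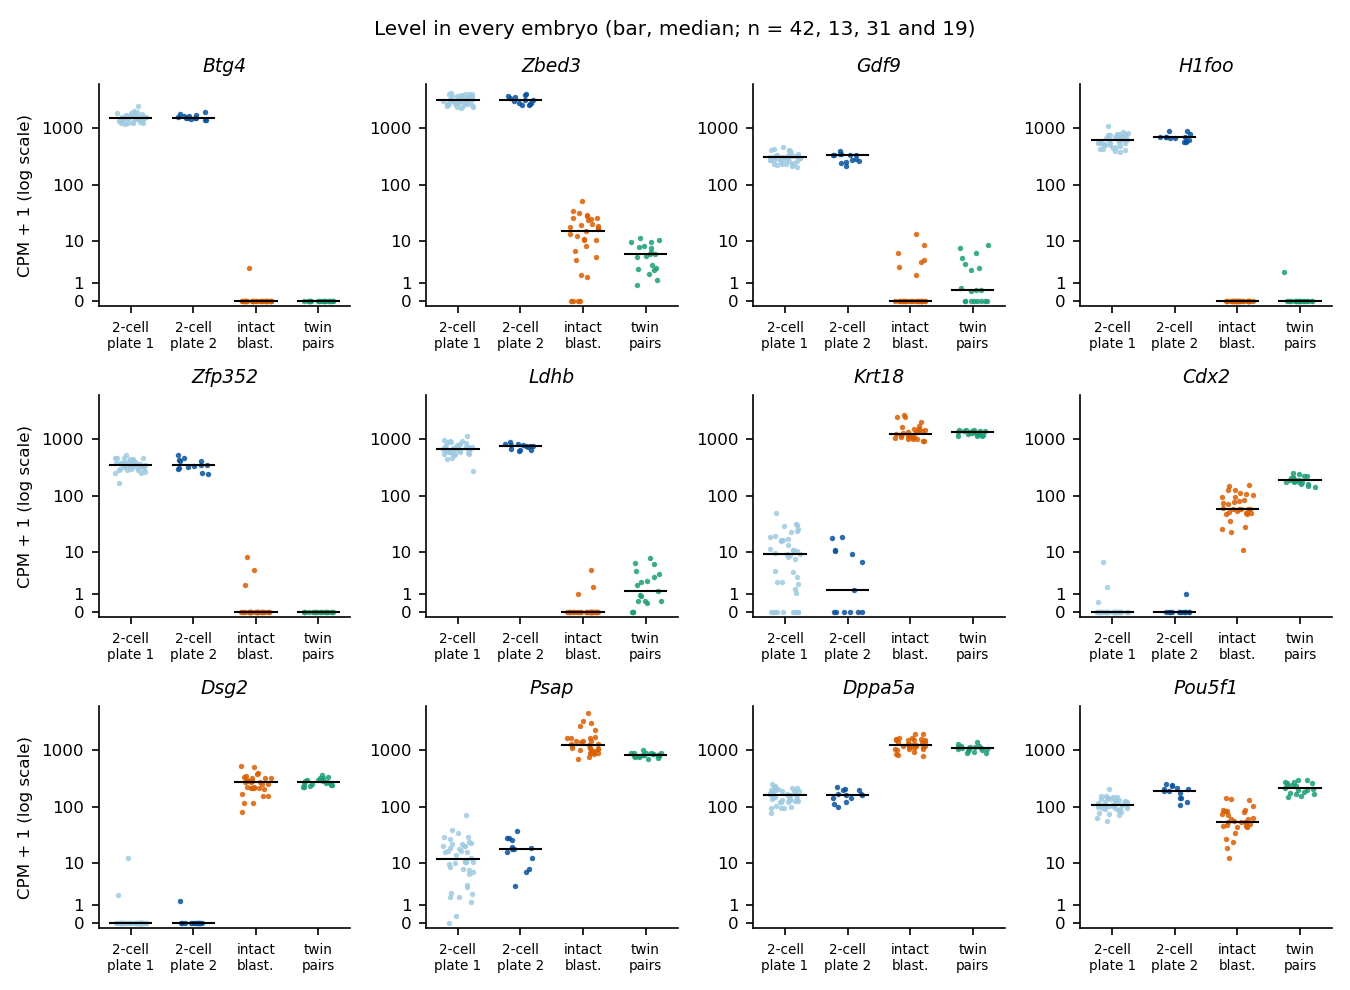
Level of 12 genes in every embryo, in CPM + 1 on a log scale, for 42 2-cell embryos of plate 1, 13 of plate 2, 31 intact blastocysts and 19 pairs of twin blastocysts, with bars at the medians. Btg4, H1foo, Zfp352 and Ldhb sit at or near 0 in intact blastocysts, and for Pou5f1 the median of the intact blastocysts lies below, and that of the twin pairs above, the medians of the 2-cell embryos.

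Genes that mark the activation of the embryonic genome were lost in the same way: all 14 tested of 16 listed were lower in blastocysts (median log2 fold change -9.38). Zfp352 ran from 170.4 to 521 (median 352) CPM at the 2-cell stage and from 0 to 8.01 (median 0) CPM in blastocysts (log2 fold change -10.46 ± 0.20, adjusted p = 1.2e-67). Zscan4d, a SCAN and zinc-finger factor of the 2-cell stage, ran from 15.9 to 425 (median 187) CPM at the 2-cell stage and from 0 to 2.61 (median 0) CPM in blastocysts. The paper, which names no single member, describes Zscan4 as missing from these blastomeres. It uses this, with other transcripts, to place them early in the 2-cell stage, and the counts of Zscan4d differ from that description. Tcstv1 and Tcstv3, of a variable gene group of the 2-cell stage, fell from 222 ± 54.5 and 163 ± 45.4 CPM to 0.0389 ± 0.217 and 0.428 ± 2.38. Obox3, Spz1 and Usp17lc were at 0 in all blastocysts, at least 1656-fold, 942-fold and 628-fold lower. In total the list ran from 869.8 to 2656 (median 1688) CPM in 2-cell embryos and 0 to 14.5 (median 0) CPM in blastocysts. Of the 11 promoters of this list in the table, 6 (54.5%) held the letters TATAAA on either strand, against 7.15% of those of tested genes and 14.2% of all, and the median number of CpG was 2. Their median GC content was 47%, against 60.7% for tested genes and 52.7% for all. The list also holds copies of the same genes, so these promoters are not all separate cases, and the comparison was not tested.

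Among transcripts gained, 12 tested genes were at 0 in every 2-cell embryo and 4 of these averaged 100 CPM or more in blastocysts. This count and the 678 genes at 0 in all blastocysts cannot be compared directly. Over the whole group, 3 counts stood for 0.0204 CPM in 2-cell embryos and 0.136 CPM in blastocysts. Ctsll3, a cathepsin L-like protease, ran from 15.4 to 1037 (median 276) CPM in blastocysts and was at least 16237-fold higher, from 3 counts over all 2-cell embryos (0.0204 CPM). In twin blastocysts, grown from separated sister blastomeres and added per pair, it averaged 2.14 ± 2.80 CPM, against 331 ± 238 in intact blastocysts. Slc52a3, a riboflavin transporter, ran from 66.2 to 214 (median 132.2) CPM and was at least 6519-fold higher. Serpinb6c, a serine protease inhibitor, had the largest fitted rise: 1 count was seen in 2-cell embryos, against 82.8 to 726 (median 424) CPM in blastocysts. Tinagl1, an extracellular matrix protein, ran from 0 to 2.45 (median 0) CPM in 2-cell embryos and from 127.1 to 801 (median 412) CPM in blastocysts (log2 fold change 12.20 ± 0.19, adjusted p = 1.2e-75). These 4 genes, all among the largest rises, were counted in all 31 blastocysts, which the selection of genes without overlap required. At the 2-cell stage they were scarcely counted.

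The known functions of the other 11 of the 15 largest rises were varied. B3gnt5, a glycosyltransferase of glycolipids, rose from 0.299 ± 1.45 to 697 ± 229.8 CPM. Slc6a14, an amino acid transporter, rose from 0.238 ± 0.968 to 417 ± 145 CPM, and Slc29a1, a nucleoside transporter, from 0.0619 ± 0.290 to 115.8 ± 41.5. The actin-binding proteins Capg and Gsn (gelsolin) rose from 0.286 ± 1.58 and 0.0963 ± 0.348 CPM to 311 ± 96.8 and 110.6 ± 64.9, and Efhd2, which also binds actin, from 0.785 ± 2.06 to 697 ± 226. Vgll3, a partner of TEAD factors, rose from 0.163 ± 1.09 to 234 ± 82.8 CPM. Wfdc2, Jdp2, Trp53i11 and Dsg2 completed the 15, with log2 fold changes of 10.04, 9.85, 10.78 and 9.60.

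Trophectoderm genes rose in 17 of 18 tested cases (median log2 fold change 5.81). For 14 of them every blastocyst lay above every 2-cell embryo, as for 5.40% of all genes tested. Among the transcription factors, Cdx2 ran from 0 to 6.29 (median 0) CPM in 2-cell embryos, of which 4 had a count, and from 10.8 to 154 (median 60.1) CPM in blastocysts (log2 fold change 8.32 ± 0.40, adjusted p = 2.7e-35). Gata3 ran from 0 to 83.1 (median 27.8) CPM at the 2-cell stage and from 440.1 to 1464 (median 694) CPM in blastocysts (log2 fold change 4.57 ± 0.22, adjusted p = 7.5e-34). Eomes ranged from 0 to 70.1 (median 4.59) CPM at the 2-cell stage and from 484 to 1079 (median 627) CPM in blastocysts (log2 fold change 5.98 ± 0.36, adjusted p = 3.4e-27). Blastocysts lay above 2-cell embryos throughout for all 3 factors. Elf5, a factor of trophoblast stem cells, rose from 0.344 ± 0.564 to 185 ± 67 CPM, and Tfap2c, already present at the 2-cell stage, from 51.9 ± 23.7 to 270.1 ± 116.1. Tead4, the DNA-binding partner of YAP, rose from 5.48 ± 6.47 to 123.7 ± 41.9 CPM.

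The epithelial keratins accompanied them. Krt18 ran from 0 to 50.8 (median 8.499) CPM at the 2-cell stage and from 909.8 to 2626 (median 1229) CPM in blastocysts (log2 fold change 7.15 ± 0.34, adjusted p = 2.4e-34). Its partner Krt8 ranged from 0 to 73 (median 3.86) CPM at the 2-cell stage and from 622 to 1282 (median 838) CPM in blastocysts (log2 fold change 7.02 ± 0.32, adjusted p = 8.6e-36). Both were low but had counts in 40 and 44 of 55 2-cell embryos. Tspan8, a tetraspanin, ran from 0 to 38.8 (median 7.35) CPM at the 2-cell stage and from 791 to 3419 (median 1073) CPM in blastocysts (log2 fold change 7.32 ± 0.24, adjusted p = 4.9e-46). Id2, a dominant-negative helix-loop-helix factor, rose from 55.5 ± 35.5 to 849 ± 113.9 CPM. Ascl2 did not pass the test (log2 fold change 0.60 ± 0.42, adjusted p = 0.167) and was lower in twin blastocysts than in 2-cell embryos (-2.04 ± 0.59). Hand1 and Esx1, which act later in the placenta, were too low to test.

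Of 17 epiblast and pluripotency genes tested, 11 rose, 5 fell and 1 did not pass (median log2 fold change 1.31). Within plate 2, 9 were higher and 3 lower, and against twin blastocysts 14 were higher and 1 was lower (median 2.09). Dppa5a, an RNA-binding protein of pluripotent cells, ran from 79.3 to 253 (median 162) CPM at the 2-cell stage and from 791 to 1879 (median 1202) CPM in blastocysts (log2 fold change 2.98 ± 0.08, adjusted p = 2.1e-54). Klf5 ran from 16.4 to 160.0 (median 79.1) CPM at the 2-cell stage and from 566 to 1903 (median 837) CPM in blastocysts (log2 fold change 3.38 ± 0.13, adjusted p = 6.7e-44). Neither overlapped between the stages. Tfcp2l1 and Zfp42 (REX1), factors of naive pluripotency, rose from 17 ± 12.4 and 23.2 ± 17 CPM to 402 ± 138 and 308 ± 81.6, and Nanog from 5.204 ± 2.37 to 28.4 ± 21.3. Spp1, a secreted ligand of integrins, rose from 6.54 ± 11.8 to 93.3 ± 69.99 CPM.

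Pou5f1 (OCT4) went against that direction, from 55.8 to 249 (median 122.2) CPM in 2-cell embryos and from 12 to 142 (median 55.5) CPM in blastocysts (log2 fold change -1.04 ± 0.14, adjusted p = 4.4e-11), with wide overlap. Its 2-cell level differed between the plates, with means of 114.1 CPM on plate 1 and 187 CPM on plate 2 (adjusted p = 7.1e-05), and within plate 2 the log2 fold change was -1.61 ± 0.22. The sign also differed between the kinds of blastocyst. In 19 pairs of twin blastocysts, added per pair, its mean was 222 ± 47.4 CPM, and the log2 fold change over 2-cell embryos was 0.74 ± 0.11 (adjusted p = 5.6e-09). Dppa2 and Dppa4, partner proteins that bind chromatin, were lower in intact blastocysts (-1.13 ± 0.17 and -1.87 ± 0.18) but not in the twins (0.76 ± 0.12 and 0.02 ± 0.11). Klf4 was lower in both kinds (-0.85 ± 0.19 and -0.42 ± 0.16), though in intact blastocysts within plate 2 it did not pass (-0.47 ± 0.33, adjusted p = 0.198). The difference between twin and intact blastocysts was not tested, and every twin pair held more counts than every intact blastocyst.

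Primitive endoderm genes rose in 11 of 12 tested cases and fell in 1 (median log2 fold change 4.61). The members with the highest means encode the basement membrane that these cells secrete. Col4a1 ran from 0 to 35.6 (median 3.89) CPM at the 2-cell stage and from 0 to 556 (median 350.4) CPM in blastocysts (log2 fold change 5.72 ± 0.37, adjusted p = 6.9e-26). Lama1 ranged from 0 to 28.7 (median 3.91) CPM at the 2-cell stage and from 36.7 to 383 (median 257) CPM in blastocysts (log2 fold change 5.34 ± 0.35, adjusted p = 1.0e-25). Lamb1 ranged from 14.9 to 98 (median 50.3) CPM at the 2-cell stage and from 15.9 to 503 (median 313) CPM in blastocysts (log2 fold change 2.45 ± 0.15, adjusted p = 1.0e-27). Of these only Lama1 separated the stages in full. Gata6, which sets the lineage, ran from 0 to 47.1 (median 5.08) CPM at the 2-cell stage and from 11.1 to 396 (median 187) CPM in blastocysts (log2 fold change 4.50 ± 0.35, adjusted p = 1.7e-21). Sox17, Sox7 and Pdgfra, markers of the committed cells, were counted in 28, 25 and 28 of 31 blastocysts and reached 127.7, 86.7 and 132.4 CPM. Gata4 fell (log2 fold change -0.88 ± 0.24, adjusted p = 5.3e-04), from 42.6 ± 16.2 CPM in 2-cell embryos to 25.6 ± 22.3 in blastocysts. The summed list varied widely among blastocysts, from 206 to 2464 (median 1838) CPM, against 6453 to 13157 (median 7477) CPM for trophectoderm and 2671 to 4482 (median 3361) CPM for epiblast.

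**Figure D3:**
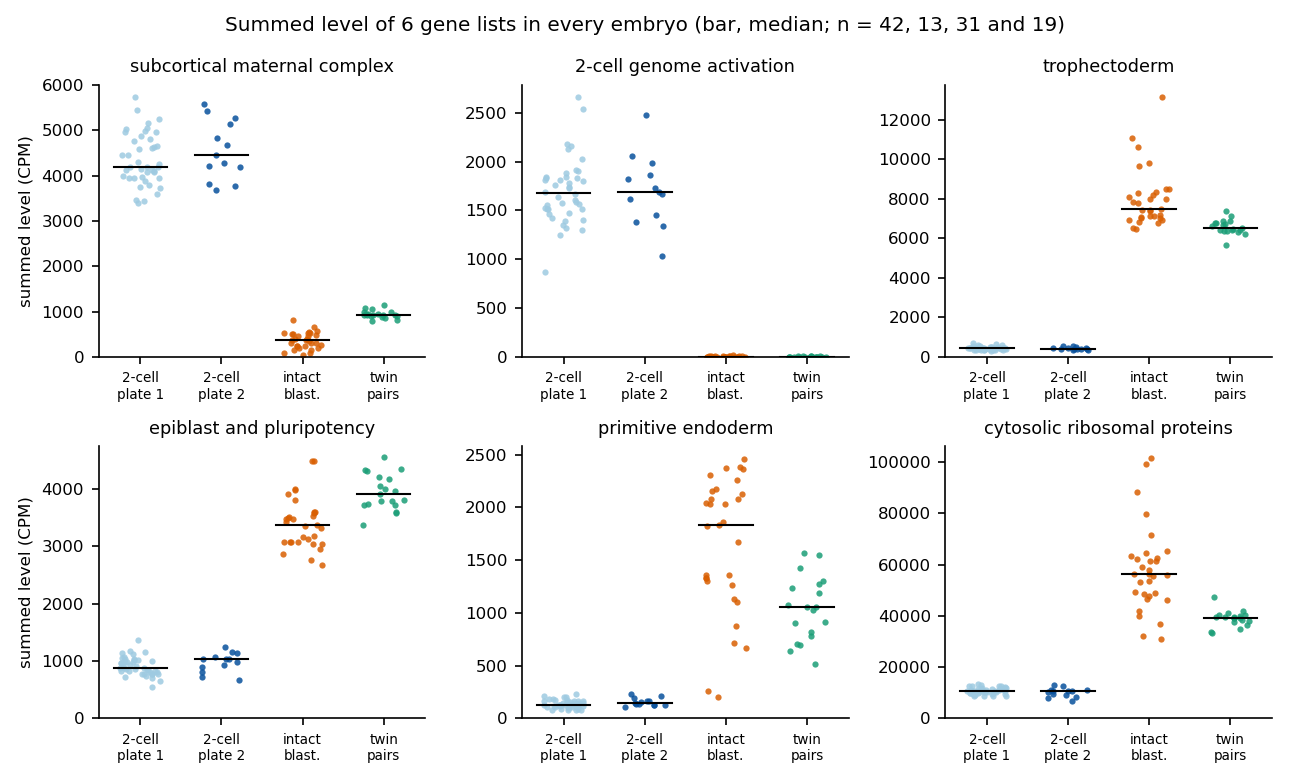
Summed level (CPM, linear axis from 0) of 6 gene lists in every embryo, for 42 2-cell embryos of plate 1, 13 of plate 2, 31 intact blastocysts and 19 pairs of twin blastocysts, with bars at the medians. The 2-cell activation list falls to a median of 0 CPM in intact blastocysts, trophectoderm and ribosomal protein sums rise without overlap, and the primitive endoderm sum spreads from 206 to 2464 CPM.

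Genes that build and fill the blastocoel, the fluid-filled cavity, were higher in 20 of 24 cases and lower in 1 (median log2 fold change 3.26). Among the junction proteins, Cldn7 ran from 0 to 21.1 (median 2.62) CPM at the 2-cell stage and from 329 to 692 (median 433) CPM in blastocysts (log2 fold change 6.59 ± 0.31, adjusted p = 1.2e-34). Cdh1 (E-cadherin) ranged from 2.29 to 138 (median 47.8) CPM at the 2-cell stage and from 232 to 1051 (median 372) CPM in blastocysts (log2 fold change 3.08 ± 0.14, adjusted p = 3.9e-37). Both genes separated the stages. The desmosomal cadherin Dsg2 rose from 0.281 ± 1.65 to 265 ± 98.2 CPM. Of the sodium pump, the subunit gene Atp1b1 rose by 2.04 on the log2 scale, while Atp1b3 did not pass (log2 fold change -0.22 ± 0.12, adjusted p = 0.0843). Aqp3 and Aqp8, water channels, rose from 4.39 ± 5.204 and 0.0167 ± 0.124 CPM to 249 ± 85.1 and 32.8 ± 31, and Aqp9, which the 2-cell embryo already had at 85.8 ± 42 CPM, did not pass (log2 fold change -0.39 ± 0.21, adjusted p = 0.0808). The sodium-proton exchanger gene Slc9a3 fell from 19.4 ± 14.7 to 0.0356 ± 0.198 CPM (log2 fold change -7.55 ± 0.52, adjusted p = 1.1e-24), and the tight junction adaptor Cgn did not pass (log2 fold change -0.10 ± 0.15, adjusted p = 0.529). With TMM normalisation Atp1b3, Aqp9 and Cgn were lower (-0.45 ± 0.12, -0.60 ± 0.22 and -0.32 ± 0.15).

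Early embryos use pyruvate and lactate, and glucose uptake and glycolysis increase towards the blastocyst. Of 17 tested genes of this list, 16 were higher and 1 was lower (median log2 fold change 1.70). Slc2a3 (GLUT3) ran from 1.41 to 60.2 (median 17.1) CPM at the 2-cell stage and from 236 to 896 (median 443) CPM in blastocysts (log2 fold change 4.64 ± 0.17, adjusted p = 7.5e-45). The hexokinase gene Hk2 ranged from 0 to 53.6 (median 13.9) CPM at the 2-cell stage and from 265 to 838 (median 397) CPM in blastocysts (log2 fold change 4.77 ± 0.24, adjusted p = 5.8e-33). Both stood apart from the 2-cell range. Aldoa, Gapdh, Tpi1 and Gpi1 rose by 2.34, 2.25, 2.33 and 2.83 on the log2 scale, and Pkm, the last enzyme of the path, by 0.49. The call for Pkm was lost on the TPM scale (log2 fold change 0.21, adjusted p = 0.0963, limma) and within plate 2 with TMM normalisation (0.33, adjusted p = 0.104, edgeR). The subunit genes of lactate dehydrogenase moved in opposite directions. Ldhb, the subunit stored in the oocyte, ran from 272 to 1105 (median 692) CPM at the 2-cell stage and from 0 to 4.25 (median 0) CPM in blastocysts (log2 fold change -11.17 ± 0.18, adjusted p = 2.4e-74). Ldha ran from 14.5 to 146 (median 62.5) CPM at the 2-cell stage and from 0 to 323 (median 163) CPM in blastocysts (log2 fold change 1.09 ± 0.20, adjusted p = 9.9e-07), and against the twins its value was -0.02 ± 0.20.

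Sterol genes were higher in 14 of 16 cases and lower in 1 (median log2 fold change 2.03). The farnesyl diphosphate synthase gene Fdps ran from 4.27 to 93.7 (median 49.5) CPM at the 2-cell stage and from 71.3 to 485 (median 216) CPM in blastocysts (log2 fold change 2.21 ± 0.14, adjusted p = 7.5e-28). Fdft1 (squalene synthase) fell (log2 fold change -0.56 ± 0.11, adjusted p = 4.0e-06) but did not pass against the twins (-0.15 ± 0.09), and Hmgcs1 did not pass (log2 fold change 0.14 ± 0.11, adjusted p = 0.202).

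Lysosomal genes were higher in 12 of 16 cases and lower in 3 (median log2 fold change 1.82). Psap, which encodes the precursor of the saposins, ran from 0 to 72.5 (median 15.7) CPM at the 2-cell stage and from 691 to 4374 (median 1206) CPM in blastocysts (log2 fold change 6.49 ± 0.23, adjusted p = 5.2e-43). Lamp1, a main protein of the lysosome membrane, rose from 29 ± 16.1 to 531 ± 167 CPM, and the protease gene Ctsd from 10.5 ± 9.84 to 263 ± 85.1. Psap and Ctsd did not overlap between the stages. Ctsh fell (log2 fold change -2.40 ± 0.24, adjusted p = 7.1e-16), whereas Hexa, which encodes a hexosaminidase subunit, rose (log2 fold change 5.52 ± 0.42, adjusted p = 5.3e-22).

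**Figure D4:**
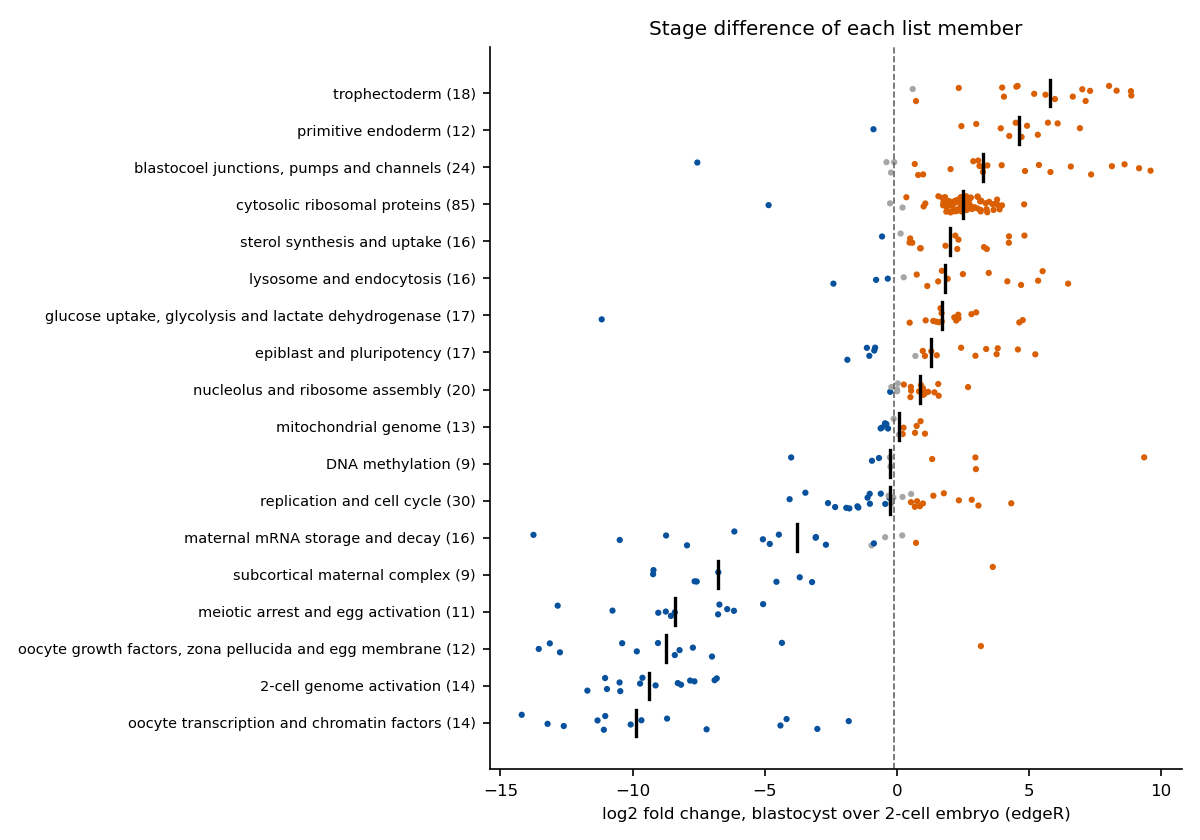
Log2 fold change, blastocyst over 2-cell embryo, of every tested member of 18 gene lists, with the number tested in brackets, black bars at the list medians and a dashed line at the median over all genes (-0.11). Orange points were higher and blue points lower at an adjusted p under 0.05, and grey points did not pass. The 5 maternal lists and the 2-cell activation list lie at the bottom with medians of -3.77 to -9.87, and trophectoderm lies at the top with 5.81.

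The share of counts from cytosolic ribosomal protein genes rose from 1.06 ± 0.14% to 5.805 ± 1.68% (mean ± SD; adjusted p = 4e-05, permutation test, two-sided). Of 85 genes 82 were higher and 1 was lower (median log2 fold change 2.51). For 71 every blastocyst lay above every 2-cell embryo, as for 5.40% of all genes tested. Rpsa ran from 26.6 to 314 (median 120.9) CPM at the 2-cell stage and from 752 to 3790.1 (median 1693) CPM in blastocysts (log2 fold change 3.89 ± 0.13, adjusted p = 1.2e-46). Rplp0 ranged from 352 to 717 (median 524) CPM at the 2-cell stage and from 734 to 2199.5 (median 1122) CPM in blastocysts (log2 fold change 1.08 ± 0.06, adjusted p = 1.4e-30). The exception was Rpl3l, a variant known from striated muscle, at 8.98 ± 8.84 CPM in 2-cell embryos and 0.612 ± 3.08 in blastocysts. These genes have many processed copies in the genome, so that their single values are uncertain. Genes of the nucleolus and of ribosome assembly were listed too: 15 of 20 were higher and 1 was lower, with a median of 0.88. Npm1 ran from 514 to 961 (median 686) CPM at the 2-cell stage and from 619 to 2899.8 (median 1595) CPM in blastocysts (log2 fold change 1.19 ± 0.07, adjusted p = 1.1e-28). Ncl (nucleolin) ranged from 321 to 919 (median 585) CPM at the 2-cell stage and from 343 to 3278 (median 1129.5) CPM in blastocysts (log2 fold change 0.999 ± 0.11, adjusted p = 7.8e-15). The 2-cell level of Ncl differed between the plates, with means of 637 CPM on plate 1 and 494 CPM on plate 2 (adjusted p = 0.0342). Wdr12 and Bop1, subunits of one assembly complex, rose by 1.59 and 2.70 on the log2 scale.

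Protein-coding genes of the mitochondrial genome showed no common direction. On the CPM scale 6 of 13 were higher and 5 were lower, near the shares over all genes (40.8% and 44.8%). Another 2 did not pass, and the median log2 fold change was 0.08. With TMM normalisation 4 were higher and 6 were lower, with a median of -0.14. The cytochrome oxidase genes mt-Co1, mt-Co2 and mt-Co3 rose by 0.75, 0.90 and 1.07, while mt-Nd2 and mt-Cytb fell by 0.61 and 0.39. Duplicate reads had been collapsed in these counts. Mitochondrial genes held up to 6.72 counts per exonic base in a blastomere (mt-Atp6) and 7.26 in an intact blastocyst (mt-Co3). How collapsing changed the levels of the mitochondrial genes was not tested. Their summed share was 1.51 ± 0.33% in 2-cell embryos and 1.80 ± 0.48% in blastocysts (adjusted p = 0.00181, permutation test, two-sided). In twin blastocysts the mean share was 1.44%, and 5 of the 13 genes were higher and 8 lower than in 2-cell embryos (median log2 fold change -0.34). At a common depth of 234099 counts, 11415 ± 396 genes were counted in a 2-cell embryo and 10287 ± 929 in a blastocyst (adjusted p = 4e-05 by the same test). The 100 highest genes took 11.8 ± 0.84% and 13.1 ± 2.59% of the counts (adjusted p = 0.00268 by the same test). With 4 measures in this family, each passed within plate 2 as well.

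DNA methylation genes also moved in both directions, with 4 of 9 higher and 3 lower, shares near those over all genes (median log2 fold change -0.24). The median was 0.08 within plate 2, with 4 higher and 2 lower, and 0.57 against twin blastocysts, with 5 higher and 3 lower. The summed level was 1351 ± 263 CPM in 2-cell embryos, 1233 ± 184 in intact blastocysts and 1472 ± 176 in twin pairs. Tdg, the glycosylase that removes oxidised methylcytosine, ran from 0 to 4.03 (median 0) CPM at the 2-cell stage and from 25.6 to 256 (median 136) CPM in blastocysts (log2 fold change 9.36 ± 0.31, adjusted p = 1.8e-47). Tet3, the dioxygenase of the zygote, ran from 344 to 990.5 (median 637) CPM at the 2-cell stage and from 0 to 111.1 (median 43.8) CPM in blastocysts (log2 fold change -3.997 ± 0.14, adjusted p = 7.2e-46). Each separated the stages, in opposite directions. Dnmt3b rose from 39.1 ± 19.6 to 319 ± 106.3 CPM, Dnmt3l from 87.3 ± 24.5 to 219.8 ± 109.4 and Tet2 from 20.1 ± 12.4 to 151 ± 85.1. Dnmt3a fell (log2 fold change -0.67 ± 0.14, adjusted p = 6.4e-06), though within plate 2 it did not pass (-0.54 ± 0.26, adjusted p = 0.0583). Uhrf1, which guides DNMT1 to replicated DNA, also fell (log2 fold change -0.94 ± 0.12, adjusted p = 5.9e-11). Dnmt1 itself did not pass on the CPM scale (log2 fold change -0.24 ± 0.15, adjusted p = 0.133) and was lower with TMM normalisation (-0.47 ± 0.15, adjusted p = 0.00385).

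Cell cycle genes were higher in 11 of 30 cases and lower in 14 (median log2 fold change -0.25), again near the shares over all genes. Against twin blastocysts the balance turned, with 17 of 29 higher and 8 lower (median 0.50), and the summed level was 4040.2 ± 391 CPM in 2-cell embryos, 2778 ± 589 in intact blastocysts and 4669.9 ± 368 in twin pairs. Ccnb1, the mitotic cyclin, ran from 533 to 1245 (median 951) CPM at the 2-cell stage and from 11.1 to 399 (median 272) CPM in blastocysts (log2 fold change -1.91 ± 0.12, adjusted p = 2.3e-26). Ccna2 ranged from 409 to 620.4 (median 504) CPM at the 2-cell stage and from 3.69 to 305 (median 158) CPM in blastocysts (log2 fold change -1.80 ± 0.13, adjusted p = 5.2e-24). Ccne2 ranged from 74.9 to 286 (median 166) CPM at the 2-cell stage and from 0 to 38 (median 13.3) CPM in blastocysts (log2 fold change -3.46 ± 0.17, adjusted p = 6.9e-34). For these 3 cyclins every 2-cell embryo lay above every blastocyst. The phosphatase gene Cdc25b fell from 84.3 ± 27.9 to 4.85 ± 5.76 CPM. In contrast Cdk4, the kinase of the G1 phase, rose from 17.1 ± 11 to 123 ± 51.2 CPM, its partner Ccnd2 from 2.33 ± 4.55 to 46.8 ± 51.1, Tyms (thymidylate synthase) from 22.3 ± 16.6 to 170.1 ± 65.6 and the kinase inhibitor Cdkn1a (p21) from 43.9 ± 25.2 to 229 ± 90.7.

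A list of 20 pairs set an oocyte form against its somatic paralogue, with levels per length (TPM, which scales counts by gene length before they are summed to a common total). The oocyte form was lower in blastocysts in 20 of 20 pairs, against 44.8% of all genes tested. The name is that of the list: Dnmt3a still averaged 116.3 ± 61.4 CPM in blastocysts, and its fall did not pass within plate 2 (adjusted p = 0.0583, edgeR). The paralogue was higher in 7 and lower in 10, near the shares over all genes (40.8% and 44.8%). The share of the oocyte form in the TPM of both did not overlap between the stages in 10 pairs. For Ldhb in Ldhb/Ldha it ran from 89.9 to 99.2% (median 95.9%) in 2-cell embryos and 0 to 4.67% (median 0%) in blastocysts, of which 30 had counts for the pair. For Btg4 in Btg4/Btg1 it ran from 96.3 to 99.8% (median 98.9%) in 2-cell embryos and 0 to 3.62% (median 0%) in blastocysts. For Wee2 in Wee2/Wee1 it ran from 90.5 to 99.2% (median 95.8%) in 2-cell embryos and 0 to 17.9% (median 0%) in blastocysts. For Npm2 in Npm2/Npm1 it ran from 42.3 to 64.7% (median 53.3%) in 2-cell embryos and 0 to 0.907% (median 0%) in blastocysts. In these 4 pairs the oocyte form was nearly absent from the blastocysts.

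The paralogue itself moved differently from pair to pair. Btg1, which also binds the deadenylase, rose (1.45 ± 0.18), as did Elavl1 (1.48 ± 0.11), Pabpc1 (2.04 ± 0.09) and Ybx1 (0.98 ± 0.06), on the log2 scale. Wee1 did not pass (0.14 ± 0.20, adjusted p = 0.514). The linker histone H1f0 fell (-1.11 ± 0.12, and 0.79 against twin blastocysts), yet the share of H1foo went from 76.1 to 93.1% (median 85.9%) in 2-cell embryos to 0% in every blastocyst. Tbp (-1.49 ± 0.18) and Kpna2 (-1.51 ± 0.16) fell beside their oocyte forms Tbpl2 and Kpna7. In 2 pairs the median share of the germline-enriched form was higher in blastocysts, where its paralogue fell further. For Lsm14b in Lsm14b/Lsm14a it ran from 9.85 to 46.6% (median 23.3%) in 2-cell embryos and 1.01 to 98.3% (median 38.7%) in blastocysts. For Taf4b in Taf4b/Taf4 it ran from 40.1 to 67.1% (median 54.8%) in 2-cell embryos and 0 to 92.6% (median 59.6%) in blastocysts. Both overlapped widely.

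**Figure D5:**
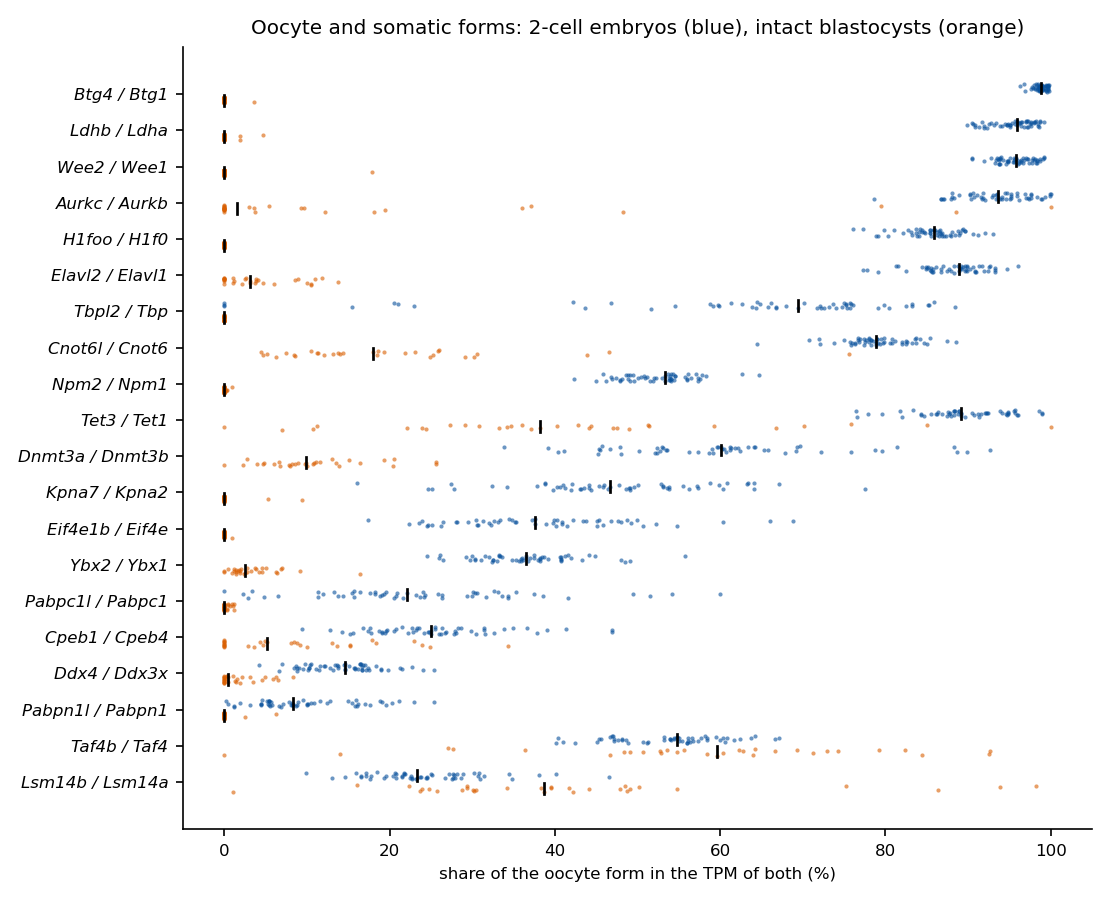
Share of the oocyte form in the TPM of both members of 20 gene pairs (percent), with 1 point per 2-cell embryo (blue) or intact blastocyst (orange) and bars at the medians. The stages do not overlap in 10 pairs, and Lsm14b/Lsm14a and Taf4b/Taf4 at the bottom have the higher median in blastocysts.

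The genes with the highest mean CPM, not corrected for length, were mostly different at each stage, with mt-Co1 alone among the 10 highest of both. Of the 10 highest in 2-cell embryos 4 were genes of the mitochondrial genome. In 2-cell embryos Zbed3 was followed by Spin1, a reader of histone methylation, at 2653 ± 256 CPM against 72.6 ± 34.5 in blastocysts. Tiparp, an ADP-ribosyltransferase, fell from 2209 ± 191 to 65.1 ± 39.2 CPM, Mdm4, an inhibitor of p53, from 2128 ± 175 to 192 ± 48.5, and the uncharacterised E330034G19Rik from 1717 ± 219 CPM to 0. In blastocysts Malat1, a nuclear noncoding RNA, ranked highest at 4400.3 ± 2304 CPM against 302 ± 67.6 in 2-cell embryos. It was followed by mt-Co1 at 3614 ± 919.7 and Gm42418, annotated as a long noncoding RNA, at 3592 ± 3862. Levels of Gm42418 ran from 408 to 13537 (median 1725) CPM in intact blastocysts and averaged 664 ± 232 CPM in twin pairs. In twin blastocysts Malat1 averaged 1163 ± 269 CPM, below mt-Co1 at 2905 ± 269 and Actb at 2091 ± 177. Actb, the cytoplasmic actin, ran from 67.9 to 288 (median 162) CPM at the 2-cell stage and from 2171 to 7089 (median 3065) CPM in blastocysts (log2 fold change 4.36 ± 0.10, adjusted p = 2.8e-61). The chaperone genes Hsp90aa1 and Hsp90ab1 rose by 1.92 and 1.59 on the log2 scale. At the other end, 5 genes of 100 CPM or more at both stages had fitted log2 fold changes within 0.01 of 0, on the CPM scale. Tacc3, a spindle protein, averaged 113 ± 37.7 and 115.5 ± 60.4 CPM and Fem1b, a ubiquitin ligase adaptor, 256 ± 54.9 and 259.6 ± 78. The others were Ankrd13a, Mak16 and Prrc2c. With TMM normalisation Fem1b lay at -0.22.

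The interaction of stage and ICSI site passed for 403 genes (3.19%, with 1979 at an unadjusted p under 0.05). With library size and the number of genes counted as covariates 192 passed, and within plate 2 91 of the 10292 genes tested there did. Among those described above, it passed for Gdf9 (adjusted p = 8.6e-04), with blastocyst means of 0 CPM after contralateral, 0.573 ± 1.10 after ipsilateral and 2.90 ± 4.29 after equatorial injection. These means rest on few blastocyst counts. For Cdx2 (adjusted p = 0.0165) the blastocyst means were 77.2 ± 40.5, 42.9 ± 18.2 and 88.8 ± 31.1 CPM in the same order. Its 2-cell means were 0.0787, 0.369 and 0 CPM. Its interaction terms (-1.34 contralateral and -3.89 ipsilateral, log2 against equatorial) thus also depend on a few 2-cell counts. For Malat1 (adjusted p = 0.00685) the blastocyst means were 6124 ± 3019, 3698 ± 551 and 3288 ± 1149 CPM. With those covariates Malat1 did not pass (adjusted p = 0.0657). None of these 3 passed within plate 2, where the 2-cell groups held 3, 8 and 2 embryos. Gdf9 and Cdx2 were far apart between the stages after injection at every site.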

How the data were processed

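Single blastomeres of 2-cell embryos and whole blastocysts were lysed and amplified as full-length cDNA with a SMART-Seq kit. The authors deposited whole-number read counts per gene, unnormalised, with 32285 genes in every table. Per the study's methods and the submitters' processing notes, reads were trimmed with Trimmomatic 039, inspected with FastQC 0.12.1, shortened to 100 bases and counted with STAR 2.7.10b in its SmartSeq mode without strand, on GRCm38 with GENCODE M23. Counting without strand cannot separate a gene from an antisense partner. One set of libraries was sequenced from both ends and the other, with all blastocysts, from a single end, and which plate held which set is not given in the sources used here. The deposited count tables equalled the matrices with duplicate reads collapsed in all 4035625 blastomere entries and all 2227665 blastocyst entries, so duplicates were already removed. No column lacked a sample (0 unmapped).

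Blastomeres with 9500 or more counted genes were kept and sisters were added, since they are not separate embryos. Genes passed filterByExpr of edgeR 4.0.16 (R 4.3.3). Log2 fold changes came from the edgeR quasi-likelihood test with library size as the scale and ICSI site and stage as terms. Adjusted p-values of this fit were Benjamini-Hochberg values over the 12645 genes tested. Each alternative fit was adjusted over the genes that it tested. Errors of log2 fold changes are standard errors derived from the quasi-likelihood F statistic, and errors of CPM are SDs over embryos. The interaction of stage and site was tested in the same way. Library measures were compared by a two-sided permutation test with 100000 resamples, whose smallest p is set by that number, and adjusted over the measures. Folds against a stage without a count used a floor of 3 counts over the group. Counting intervals are at 95%, and intervals and floors cover counting error only. The labels do not tie embryos to parents or culture days, so p-values measure only the spread between embryos. Twin blastocysts, the product of bisected 2-cell embryos, were used as an alternative stage with both twins added. TPM used the exonic lengths of GENCODE M21, which held 32235 of the 32285 genes. Promoter sequences were RefSeq records of GRCm38.p6.

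The members and the gene lists were chosen with earlier results of these data known. Genes named were up to 8 of each list with the highest mean CPM in the higher stage and the members that went against their list, the genes of the paralogue pairs, the 15 largest falls and 15 largest rises among genes with an official symbol, an adjusted p under 0.05, a mean of 100 CPM or more in the higher stage and no overlap, the 10 highest means at each stage, and the 5 least changed genes with 100 CPM or more at both. Other genes were named after their values were seen, and some genes that the rule names are not reported here.

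Alternatives were TMM and RLE factors, DESeq2 1.42.0, a rank-sum test by permutation, limma 3.58.1 on log2(TPM + 1), no filter, plate 2 alone, a mitochondrial limit of 2% in each sister, every pair in the table, no site term, 2-cell embryos thinned to a total of 705837, twin blastocysts, the 3 embryos of lowest total in each stage left out, and 1 sister alone. Plate 2 over the same genes, plate 2 with TMM and the omission of 1 ipsilateral blastocyst were chosen after seeing the data. The scripts were tested on simulated data and used Python 3.11.15, numpy 2.4.6, pandas 2.3.3, scipy 1.17.1 and matplotlib 3.10.9.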

Additional observations from a re-analysis of the deposited data

Results flagged for a closer look

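Among the 8 ipsilateral intact blastocysts, the only group small enough for the check, 14 of 147 values examined held 1 embryo set apart from the rest of its group by more than 0.526 of the group's range. For normally distributed values chance sets apart about 1 in 20 such groups. Levels in CPM need not be normal, and all values came from the same 8 embryos, so that rate may not hold here. Of the 14 values, 11 came from a single embryo, blastocyst 90, with 573605 counts, and the other 3 from 3 other embryos. The summed nucleolus list reached 8527 CPM in the highest embryo, against a median of 6341. Trophectoderm, adhesion and sodium pump genes with a lone high embryo were Gata3 (854 CPM, median 652), Id2 (1026, median 831), Cdh1 (615, median 363) and Atp1b3 (248, median 124.1). Pou5f1 reached 131.04 CPM against a median of 55.5, and Npm1, a nucleolar chaperone, 2186 against 1586. The chaperones Hsp90aa1 and Hsp90ab1 reached 3329.8 and 2564 CPM against medians of 2066 and 1488, and Gm42418 reached 4346.2 against 1098. Fdft1, the squalene synthase, reached 256 CPM (median 138), the lysosomal protease Ctsd 404 (median 224) and Btg1 168 (median 82.9). The mitochondrial mt-Nd2 had a lone low embryo at 289 CPM, against a median of 821. Without blastocyst 90, 5178 genes were higher and 5703 were lower, and the log2 fold change of Atp1b3 became -0.27 with an adjusted p of 0.0368 (edgeR), past the threshold that it had missed.

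For 18 of the 180 tested genes named, the change between the stages differed between the ICSI sites at an adjusted p under 0.05 (edgeR quasi-likelihood test of the interaction). Over all genes, 403 of the 12645 tested passed (3.19%). The named genes were in part chosen for large differences between the stages, so the shares are not directly comparable. Among oocyte factors these were Kit (3.6e-04), Gdf9 (8.6e-04), Kpna7 (0.00596), Dppa3 (0.00685) and Spin1 (0.0387). They also included Dppa2 (0.0249), Tcstv3 (0.0324) and Prrc2c (0.0466). Among genes of the blastocyst lineages they were Dsg2 (0.0139), Cdx2 (0.0165), Sox7 (0.0213), B3gnt5 (0.0249) and Wfdc2 (0.0263). Malat1 (0.00685), Gm42418 (0.0312) and the mitochondrial mt-Cytb (0.00138), mt-Nd2 (0.026) and mt-Co3 (0.0438) completed the 18. For those of the blastocyst lineages the 2-cell means were at most 0.707 CPM in any site group, so their interaction also depends on few 2-cell counts. For Kit, Gdf9, Kpna7 and Tcstv3 the blastocyst means were at most 3.17 CPM in any site group. The interaction of these genes thus depends on few blastocyst counts. With library size and the number of genes counted as covariates, Dppa2 (0.252), Dppa3 (0.129), Spin1 (0.227), Prrc2c (0.226), Gm42418 (0.331), mt-Nd2 (0.109), Malat1 (0.0657), Tcstv3 (0.063) and Dsg2 (0.0506) no longer passed. Within plate 2 none of the 18 passed, the lowest adjusted p being 0.0643 for Kpna7, in a fit with 3, 8 and 2 2-cell embryos in the site groups. Without blastocyst 90 all 18 passed, and with TMM factors mt-Co3 (0.0552) did not.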

How the results depend on the processing

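Depth limits the low end of the comparison. The blastocysts held fewer counts than the 2-cell embryos, and 3 counts stood for 12.8 CPM in the shallowest blastocyst against 0.755 CPM in the deepest 2-cell embryo, so absence from a blastocyst was detectable only above that level. Relative scales do not show absolute amounts, and plate 2 was shared by the stages in 13 2-cell embryos only. No paired analysis was possible because no embryo number is shared between the stages.

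Of 180 tested genes named, 161 kept direction and call under every alternative that could be fitted, and 8 changed sign with a call in the alternative under at least 1. Without the filter on low counts, 7896 genes were higher and 9962 lower, 4319 and 6609 of them by 4-fold or more, against 5161, 5664, 2598 and 3368 as reported, with more genes tested. With plate 2 alone and its own filter, 3366 were lower, 1802 by 4-fold or more, and with TMM factors on plate 2, 2060 were lower by 4-fold or more. Over the genes reported, plate 2 gave 4528 higher and 5090 lower. The interaction with site passed for 91 of 10292 genes in plate 2 alone and for 192 with library size and genes counted as covariates, against 403, and the cause was not tested. Calls that were higher made up 47.7% of all calls, 43.6% with TMM factors and 57.2% with plate 2 alone.

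With twin in place of intact blastocysts, list sums moved by more than 1 SD for the subcortical maternal complex (937.69 CPM against 363 in intact blastocysts and 4406 in 2-cell embryos), oocyte transcription and chromatin factors (658.13 against 171 and 5192), epiblast (3944.2 against 3401 and 925), DNA methylation (1472.3 against 1233 and 1351), cell cycle (4669.9 against 2778 and 4040.2) and ribosomal proteins (38915 against 58049 and 10611). The direction between the stages turned for DNA methylation and cell cycle. Every twin pair held more counts than every intact blastocyst, so depth and kind of blastocyst cannot be told apart here. Log2 fold changes of opposite sign against twins were -2.0422 for Ascl2, 0.75571 for Dppa2, 0.016541 for Dppa4, -0.72199 for Fem1b, 0.7923 for H1f0, -0.018635 for Ldha, 0.7398 for Pou5f1, -0.54273 for Prrc2c and 0.59897 for Tacc3. Ankrd13a was at -0.2409 with RLE factors and -0.23777 with DESeq2. Fem1b was at -0.21937 with TMM, -0.21396 with RLE, -0.21924 with DESeq2, -0.21938 with TPM and -0.35216 with plate 2 and TMM. The cause was not tested.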
